A study of Mus musculus with 26 samples.

Results

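The 7 genes described here are Sox13, Maf, Il23r, Il1r1, Il17re, Il17rc and Blk, followed in positively selected CD8 thymocytes of 3 TCR transgenic mouse lines. Sox13 and the 4 receptor genes were picked because their measured values were high in OT-1, and Maf and Blk were added as known partners, so every difference between OT-1 and another line is given below as a description of these genes, with no test. They are 7 of the 46517 gene symbols in the table. All 7 passed the filter used for testing (10 or more normalized counts in 2 or more of the libraries), but Il23r and Il1r1 reached 10 in no library outside OT-1 and passed only through it.

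The question of the study was how self-reactivity of the TCR shapes the passage of thymocytes through positive selection. TG6 carries a TCR of low self-reactivity, F5 an intermediate one and OT-1 a high one. Thymocytes were sorted as CD4+CD8+CXCR4+CCR7- (early positive selection, here early), CD4+CD8+CXCR4-CCR7+ (late) and CD4-CD8+CXCR4-CCR7+ (mature CD8SP, here mature), and bulk RNA was sequenced in 3 biological replicates per line and stage, with 2 for TG6 late. OT-1 mice had the genotype OT-1tg Rag2KO on C57/BL6, F5 mice had F5tg Rag1KO on C57/BL6, and TG6 mice had TG6tg H2b/d on C57/BL6 x B6.C-H2d/bByJ, with no Rag deletion in the genotype label. Line therefore cannot be told apart from the Rag genotype and, in contrasts with TG6, from the H2 haplotype. In the Rag-deficient lines the TCR is limited to the transgene, while TG6 mice can still rearrange their own receptor genes. Mice were 3 to 10 weeks old, a range that covers all experiments on animals past the neonatal period and is not broken down by library.

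Type 17 lymphocytes are T cells and innate-like lymphocytes that make IL-17 and respond to IL-23 and IL-1. SOX13 is an HMG-box transcription factor that, together with c-MAF, is known from the thymic programming of IL-17-producing gamma delta T cells, and BLK is a Src family kinase needed for the same cells. IL-23R pairs with IL-12R beta 1, IL-1R1 pairs with IL-1RAP, and IL-17RC and IL-17RE each pair with IL-17RA, to receive IL-17A and IL-17F in the first case and IL-17C in the second. The thymocytes sorted here are of the CD8 alpha beta lineage, in which these genes are not part of the usual description.

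The sequence before the RefSeq transcription start is printed for the 4 receptor genes and Sox13, because these genes were high in the same line and 2 of the receptor genes lie next to each other. RefSeq windows (GRCm38.p6, transcript strand, 250 bases before the start) matched 5 of the 7 genes, all but Maf and Blk. Capitals mark the motifs that were searched on both strands: AACAAT or ATTGTT (Sox core), AGGTCA or TGACCT (nuclear receptor site) and TGCTGA or TCAGCA (Maf site). The RefSeq starts of Il17re, Il17rc and Sox13 lie 287, 28 and 165 bases downstream of the GENCODE gene starts printed with these genes, so that all 250, 28 and 165 bases of their windows fall inside the GENCODE gene, while for Il23r and the first Il1r1 start the annotations coincide. The windows are chr6:67491856-67492105 (minus strand) for Il23r, chr1:40224830-40225079 (plus strand, the first of its 2 starts) for Il1r1, chr6:113458521-113458770 (plus strand) for Il17re, chr6:113471205-113471454 (plus strand) for Il17rc and chr1:133424213-133424462 (minus strand) for Sox13.
Il23r: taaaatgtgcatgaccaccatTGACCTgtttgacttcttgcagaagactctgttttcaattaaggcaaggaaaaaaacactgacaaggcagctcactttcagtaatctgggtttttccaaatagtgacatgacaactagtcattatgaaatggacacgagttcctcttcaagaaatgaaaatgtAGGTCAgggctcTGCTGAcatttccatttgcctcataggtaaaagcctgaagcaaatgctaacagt
Il1r1: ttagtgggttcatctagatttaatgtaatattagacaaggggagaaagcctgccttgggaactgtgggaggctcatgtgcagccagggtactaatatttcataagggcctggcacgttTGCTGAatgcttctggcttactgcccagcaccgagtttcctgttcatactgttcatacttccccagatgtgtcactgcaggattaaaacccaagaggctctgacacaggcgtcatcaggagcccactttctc
Il17re: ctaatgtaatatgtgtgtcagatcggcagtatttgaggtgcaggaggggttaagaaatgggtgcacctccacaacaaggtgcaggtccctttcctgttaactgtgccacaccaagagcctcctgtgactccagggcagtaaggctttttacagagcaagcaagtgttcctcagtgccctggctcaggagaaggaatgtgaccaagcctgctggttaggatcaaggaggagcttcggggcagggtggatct
Il17rc: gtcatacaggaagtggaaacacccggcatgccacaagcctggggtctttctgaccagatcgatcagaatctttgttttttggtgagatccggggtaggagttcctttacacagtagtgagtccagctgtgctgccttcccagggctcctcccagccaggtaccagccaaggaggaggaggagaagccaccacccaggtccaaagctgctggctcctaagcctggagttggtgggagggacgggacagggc
Sox13: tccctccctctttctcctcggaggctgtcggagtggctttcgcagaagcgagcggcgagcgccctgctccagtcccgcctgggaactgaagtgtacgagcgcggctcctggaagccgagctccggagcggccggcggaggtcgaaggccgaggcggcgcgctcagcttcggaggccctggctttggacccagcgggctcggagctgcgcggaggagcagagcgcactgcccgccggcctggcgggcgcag

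The Il23r window held TGACCT from 229 to 224 bases before the start, AGGTCA from 66 to 61 and TGCTGA from 54 to 49. The Il1r1 window held TGCTGA from 132 to 127 bases before the start. None of the 3 motifs was in the Il17re, Il17rc or Sox13 windows or in the window at the second start of Il1r1. Of 32851 mouse promoter windows of this length, 9.42% held the Sox core, 14.0% the nuclear receptor site and 16.1% the Maf site, so these matches are a description only. The Sox13 window was rich in G and C, at 72.4% with 31 CpG, and the Il23r window poor, at 39.6% with 1 CpG, against medians of 52.4% and 6 over all windows. The windows of Il17re (52.4%, 2 CpG) and Il17rc (57.6%, 4 CpG) lay between them.

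Values are normalized counts: estimated read counts per gene that the authors divided by a size factor for each library, so that 1 unit is close to 1 read. The libraries summed to between 16134786 and 18944173 normalized counts. A group mean of 3 normalized counts was taken as the floor. No fold is given against a group under it, and the higher group is set against the floor itself. Differences tested are log2 differences of (normalized counts + 1) with their standard error (SE), from limma over 16372 genes and all 26 libraries, adjusted by Benjamini-Hochberg and called at an adjusted p under 0.05. In bulk RNA, fewer cells that express a gene and less RNA per cell cannot be told apart.

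RNA of the sort markers Cd4 and Ccr7 followed the sorted stages in every line. Cd8a and Cd8b1 were lower in OT-1 than in either other line at each stage, with Cd8a at 16123 to 20021 in OT-1 early against 31839 to 41213 in TG6 and F5 early, and Ccr7 was higher in OT-1 early (647.8 to 863.3 against 112.3 to 269.9). The part of these differences in the values below was not tested. RNA of Cxcr4 overlapped between early and mature in OT-1 (1425 to 2898 and 1219 to 3316) and F5. The deleted Rag genes still gave counts: Rag1 was at 10835 to 16266 in F5 early and Rag2 at 175.8 to 290.7 in OT-1 early, against 51114 to 58364 and 2074 to 2529 in TG6 early. A few libraries stood apart in Rag1, a gene of preselection thymocytes. TG6 mature replicate 3 had 5265 where replicates 1 and 2 had 695.8 and 619.9. F5 late replicate 2 had 1658 where its partners had 62.3 and 109.0, and F5 mature replicate 2 had the highest of its group, 2698 against 703.6 and 1896.

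The clearest member was Sox13 (chromosome 1, 133382303 to 133424377 of GRCm38, minus strand), which was 9.82- to 79.3-fold higher in OT-1 when set against either other line. OT-1 early libraries held 2448.1, 2472.0 and 2338.8 normalized counts, OT-1 late 2588.3, 1933.3 and 3616.3, and OT-1 mature 1645.1, 1242.6 and 2208.9. In TG6 the values were 85.5, 108.7 and 25.1 at early, 164.8 and 147.9 at late and 141.5, 154.4 and 223.0 at mature. In F5 they were 38.8, 35.4 and 17.3, then 92.0, 78.9 and 117.0, then 39.9, 96.1 and 39.7. All 9 OT-1 libraries stood above every other library. The OT-1 mean exceeded the TG6 mean 33.1-fold at early, 17.3-fold at late and 9.82-fold at mature, and the F5 mean 79.3-, 28.3- and 29.0-fold. By mean the order was OT-1 late, OT-1 early, OT-1 mature, TG6 mature, TG6 late, F5 late, TG6 early, F5 mature and F5 early, in which OT-1 late and early, TG6 mature and late, F5 late and TG6 early, and TG6 early and F5 mature overlapped as neighbours.

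Between the lines that the choice of genes did not use, Sox13 was also unequal. F5 was lower than TG6 at mature (log2 difference -1.65, SE 0.42, limma adjusted p = 0.0171), a call that was lost without F5 mature replicate 1 (adjusted p = 0.0876), F5 mature replicate 3 (0.0955) or TG6 mature replicate 3 (0.0616), and in a fit of these 2 groups alone (0.147). At early the difference was -1.07 (SE 0.42, adjusted p = 0.150), and it passed without TG6 early replicate 3, the lowest TG6 library (-1.71, adjusted p = 0.00810). At late it was -0.72 (SE 0.47, adjusted p = 0.522). From early to late Sox13 rose in F5 (1.68, SE 0.42, adjusted p = 0.00456). It rose in TG6 as well (1.32, SE 0.47, adjusted p = 0.0428), but that call rested on TG6 early replicate 3, without which the rise was 0.69 (adjusted p = 0.261). The call in TG6 was also lost without either TG6 late library (0.191 and 0.136), in a fit of the 2 groups alone (0.187), with the replicate number within each line as a block (0.112), with no filter on low values (0.0680) and with no trend in the prior variance (0.0594). In OT-1 the same step measured 0.12 and the step to mature -0.67.

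Maf (chromosome 8, 115682942 to 115707794, minus strand), the gene of the transcription factor c-MAF, was 3.25- to 14.3-fold higher in OT-1, with its highest values at mature. The OT-1 libraries held 383.5, 343.2 and 506.4 normalized counts at early, 335.1, 265.4 and 303.8 at late, and 665.2, 527.8 and 852.2 at mature. TG6 held 105.7, 134.3 and 75.5, then 98.5 and 86.9, then 82.3, 72.8 and 53.9. F5 held 70.6, 34.1 and 36.0 at early, 76.2, 33.0 and 38.6 at late and 64.7, 31.9 and 46.4 at mature. The 9 OT-1 libraries again stood above the other 17. OT-1 exceeded TG6 3.91-, 3.25- and 9.79-fold and F5 8.76-, 6.12- and 14.3-fold at early, late and mature. The 3 OT-1 groups did not overlap one another, with mature first and late last; below them came TG6 early, late and mature and then F5 late, mature and early, where TG6 early and late overlapped, as did TG6 mature and the F5 groups in turn.

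Maf was lower in F5 than in TG6 at early (-1.19, SE 0.32, limma adjusted p = 0.0286). The call was lost without F5 early replicate 2 (adjusted p = 0.141), F5 early replicate 3 (0.123), TG6 early replicate 1 (0.0829) or TG6 early replicate 2 (0.145), and in a fit of these 2 groups alone (0.0915). At late the difference was -0.99 (SE 0.36, adjusted p = 0.140), and it passed without F5 late replicate 1 (-1.35, adjusted p = 0.0291). At mature it was -0.57 (SE 0.32, adjusted p = 0.385). No stage change of Maf was called in TG6 or F5, where the estimates ran from -0.43 to 0.05.

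**Figure D1:**
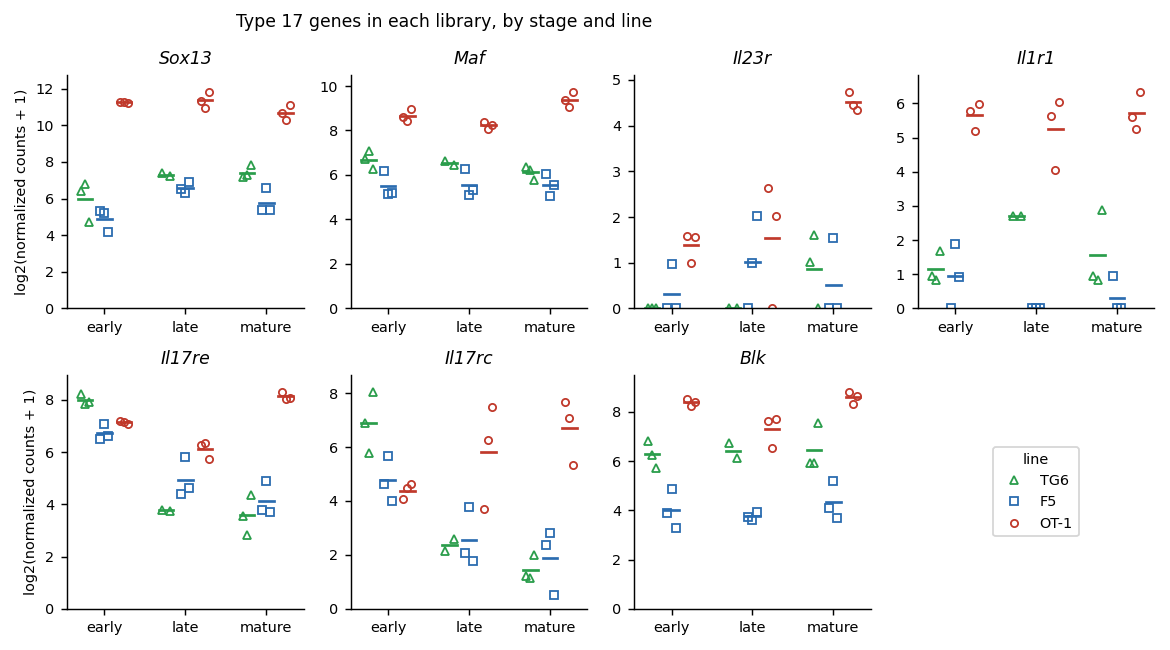
Each point is 1 library, as log2(normalized counts + 1) on the vertical axis against stage on the horizontal axis, with green triangles for TG6, blue squares for F5 and red circles for OT-1, and short lines at the group means. The OT-1 points lie above all others for Sox13, Maf and Il1r1 at each stage, while for Il17re and Il17rc the TG6 early points (225.3 to 300.0 and 53.3 to 261.7 normalized counts) lie above those of OT-1 early (133.1 to 144.5 and 15.8 to 23.6).

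The receptor of IL-23 was the member with the fewest normalized counts in each OT-1 group and was detected above the floor mainly in OT-1 mature. Il23r (chromosome 6, 67422932 to 67491855, minus strand) held 25.7, 20.9 and 19.2 normalized counts in the OT-1 mature libraries. OT-1 early held 2.0, 1.0 and 2.0 and OT-1 late 5.2, 0 and 3.0. TG6 was at 0 in all 5 early and late libraries and at 1.0, 2.0 and 0 at mature. F5 held 0, 0.97 and 0 at early, 0, 1.0 and 3.1 at late and 0, 1.9 and 0 at mature. The OT-1 mature mean was 7.31 times the floor, and this group alone separated from its neighbour in the order of means. All other groups, OT-1 early and late included, had a mean under the floor, so no difference between them was detectable at this depth, and none is given.

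Il1r1 (chromosome 1, 40225080 to 40317257, plus strand), the signalling receptor of IL-1, was present at each stage in OT-1 and close to absent elsewhere. OT-1 early held 54.3, 35.7 and 62.8 normalized counts, OT-1 late 48.5, 15.7 and 64.5, and OT-1 mature 47.2, 37.4 and 80.02. The TG6 libraries held 0.93, 0.77 and 2.2 at early, 5.5 and 5.5 at late and 0.95, 0.78 and 6.4 at mature. F5 held 0, 2.7 and 0.91 at early, 0 in all 3 late libraries, and 0.95, 0 and 0 at mature. No OT-1 library overlapped with any other. The OT-1 means were 16.98, 14.3 and 18.3 times the floor at early, late and mature. TG6 late was the one group outside OT-1 with a mean above the floor, and OT-1 late was 7.78-fold above it. The 3 OT-1 groups overlapped one another, and so did each pair of neighbours among the rest.

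Between F5 and TG6, Il1r1 differed most at late, where both TG6 libraries held 5.5 normalized counts and all 3 F5 libraries 0. No test of that difference is given, because the gene entered the fit only through its OT-1 values. Myeloid cells also carry this receptor, and the 12 myeloid and dendritic markers summed to 456.8 to 761.5 in OT-1 early against 403.6 to 501.0 in TG6 and 344.7 to 538.2 in F5. At late they summed to 298.7 to 343.7 in OT-1, 370.2 to 539.6 in TG6 and 165.0 to 189.0 in F5, and at mature to 516.6 to 731.3, 614.6 to 1279.6 and 231.0 to 633.0. At early 3 of the 12 markers (Itgax, Cd68 and Siglech) had all OT-1 libraries above both other lines and 1 (Itgam) below, at late 2 (Lyz2 and Cd68) and 0, and at mature 2 (Csf1r and Cd68) and 1 (Fcgr1). Csf1r held 42.8, 32.5 and 5.6 in OT-1 early against at most 8.3 in TG6 and F5 early, and Lyz2 93.9, 62.3 and 16.8 against at most 36.8. OT-1 early replicate 3, the lowest of its group in both, had the highest Il1r1 of its group, an observation on 1 library and 2 of the 12 markers. Cd14 was at 0 in OT-1 late and at 2.1 or less in every library. The part of this list in the Il1r1 values was not tested.

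Unlike the genes above, Il17re and Il17rc lay below TG6 in OT-1 at early and above it at late and mature. Il17re (chromosome 6, 113458484 to 113470758, plus strand) held 300.0, 225.3 and 242.4 normalized counts in TG6 early, then 12.8 and 12.4 at late and 10.7, 6.1 and 19.6 at mature. F5 held 89.7, 133.7 and 97.9 at early, 20.0, 54.5 and 23.5 at late, and 12.9, 28.8 and 12.0 at mature. OT-1 held 144.5, 141.2 and 133.1 at early, 76.5, 80.4 and 52.7 at late, and 312.5, 258.4 and 268.7 at mature. The OT-1 values thus dipped at late and were highest at mature, when both other lines were at their lowest. At early the TG6 mean was 1.83-fold above the OT-1 mean, with no overlap, so the description of the gene as raised in OT-1 does not hold there. OT-1 exceeded TG6 5.55-fold at late and 23.0-fold at mature, and F5 1.303-fold at early and 2.14-fold at late, both with overlap, and 15.7-fold at mature. Without F5 late replicate 2 the fold at late was 3.21. OT-1 mature and TG6 early overlapped at the top of the order, OT-1 early overlapped with F5 early and OT-1 late with F5 late, and the 4 lowest groups (F5 late, F5 mature, TG6 late, TG6 mature) overlapped in turn.

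From early to late, Il17re fell in TG6 (-4.23, SE 0.41, limma adjusted p = 1.09e-07) and in F5 (-1.80, SE 0.37, adjusted p = 0.000849). The fall was smaller in F5 by 2.43 on the log2 scale (SE 0.56, limma adjusted p = 0.0197 for the difference itself). That call was lost without F5 late replicate 2 (2.00, adjusted p = 0.0532), F5 early replicate 1 (0.0549), TG6 early replicate 1 (0.0505), TG6 late replicate 1 (0.0847) or TG6 late replicate 2 (0.102). F5 late replicate 2 and F5 mature replicate 2, which had the most Rag1 of their groups, also had the most Il17re of their groups, and TG6 mature replicate 3 did so as well; the part of preselection cells in these values was not tested. OT-1 mature, with Il17re at 258.4 to 312.5, held Rag1 at 202.5 to 545.4. From late to mature the changes were -0.18 in TG6 (adjusted p = 0.799) and -0.81 in F5 (adjusted p = 0.136), the latter called with the mouse as a block (adjusted p = 0.0260) and without F5 mature replicate 2 (-1.19, adjusted p = 0.0391). Between lines, F5 was lower than TG6 at early (-1.26, SE 0.37, adjusted p = 0.0443), a call lost on leaving out any 1 of the 6 libraries (adjusted p from 0.0575 to 0.155) and with a pseudocount of 0.1, no filter on low values, quantile normalization, no trend in the prior variance or the replicate block (adjusted p from 0.0503 to 0.0716). At late the difference was 1.17 (adjusted p = 0.124) and at mature 0.55 (adjusted p = 0.494).

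Il17rc (chromosome 6, 113471427 to 113483140, plus strand) starts 668 bases after the end of Il17re on the same strand. It held 118.1, 53.3 and 261.7 normalized counts in TG6 early, 3.4 and 5.1 in TG6 late, and 1.3, 1.2 and 3.0 in TG6 mature. In F5 it held 23.7, 50.1 and 15.1, then 3.2, 12.8 and 2.4, then 4.2, 5.9 and 0.44. In OT-1 it held 15.8, 21.2 and 23.6 at early, 11.8, 76.2 and 179.2 at late and 202.3, 132.9 and 39.5 at mature. Replicates of Il17rc spread widely, from 11.8 to 179.2 within OT-1 late, yet every TG6 early library was above every OT-1 early one and every OT-1 mature library was above all TG6 and F5 mature ones. TG6 exceeded OT-1 7.14-fold at early, whereas OT-1 exceeded TG6 21.0-fold at late. At mature the OT-1 mean was 41.6 times the floor, under which the TG6 mean lay. Against F5, OT-1 overlapped at early (F5 1.47-fold higher) and at late (OT-1 14.5-fold higher) and was 35.6-fold higher at mature. Single libraries decided several of these folds. Without TG6 early replicate 3 the excess of TG6 at early was 4.24-fold, without OT-1 late replicate 3 the excess of OT-1 at late was 10.4-fold over TG6 and 7.17-fold over F5, without F5 late replicate 2, which leaves F5 under the floor, the OT-1 late mean was 29.7 times the floor, and without F5 early replicate 2 the direction at early turned, with OT-1 1.04-fold above F5. In the order of means only OT-1 early and F5 late, its next lower neighbour, did not overlap.

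From early to late, Il17rc fell in TG6 (-4.52, SE 0.93, limma adjusted p = 0.000766). In F5 the change was -2.23 (SE 0.83, adjusted p = 0.0507), which passed with the mouse as a block (adjusted p = 0.0260) and without F5 late replicate 2 (-2.85, adjusted p = 0.0234). The difference between these changes was 2.296 (SE 1.24, adjusted p = 0.479). No contrast of F5 with TG6 was called. The difference was -2.13 at early and 0.17 at late (adjusted p = 0.146 and 0.964), and at mature TG6 was under the floor (adjusted p = 0.857). Both IL-17 receptor genes are also known from epithelium, and the 12 thymic epithelial and stromal markers summed to 1911.5 to 2091.9 in OT-1 mature against 2503.2 to 2716.9 in TG6 mature and 2279.3 to 2612.0 in F5 mature, with Foxn1 at 0 in all 3 groups. At early they summed to 3402 to 3614 in OT-1, 2864 to 3765 in TG6 and 3051 to 3468 in F5, and at late to 2994 to 3155, 2842 to 3255 and 3408 to 3603, most of it from Pecam1. Of the 12, 1 (Cldn4) had all OT-1 libraries below both other lines at early, 1 (Cdh5) above at late, and 1 (Cdh5) above and 1 (Pecam1) below at mature. The part of this list in the Il17re and Il17rc values was not tested.

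Blk (chromosome 14, 63372836 to 63417037, minus strand) was the member that limma called lower in F5 than in TG6 at each stage. OT-1 held 360.7, 302.2 and 338.2 normalized counts at early, 198.7, 90.0 and 206.8 at late, and 443.3, 319.4 and 392.9 at mature. TG6 held 112.8, 74.5 and 52.3, then 103.8 and 67.8, then 59.6, 59.96 and 185.4. F5 held 13.6, 28.0 and 8.7, then 12.3, 11.0 and 14.3, then 16.2, 35.9 and 12.0. No F5 library reached the lowest of TG6 or OT-1. OT-1 exceeded TG6 4.18-fold at early and 3.79-fold at mature, and 1.93-fold at late with overlap through OT-1 late replicate 2. Without TG6 mature replicate 3, which also stood apart in Rag1, the fold at mature was 6.44. OT-1 exceeded F5 19.9-, 13.2- and 18.0-fold, or 29.8-fold at early without F5 early replicate 2 and 27.3-fold at mature without F5 mature replicate 2. OT-1 mature and early overlapped, as did OT-1 late with TG6 mature, the 3 TG6 groups with one another and the 3 F5 groups with one another.

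F5 was lower than TG6 in Blk at early (-2.26, SE 0.46, limma adjusted p = 0.00316), at late (-2.66, SE 0.51, adjusted p = 0.00195) and at mature (-2.13, SE 0.46, adjusted p = 0.00416). The late call was lost without TG6 late replicate 1 (-2.35, adjusted p = 0.0624), and the mature call in a fit of these 2 groups alone (adjusted p = 0.213). No stage change was called in TG6 or F5. Blk is known also from B cells, whose 10 markers summed at early to 5941 to 7871 in OT-1, 7149 to 8640 in TG6 and 8033 to 10435 in F5. At late they summed to 5425 to 7458 in OT-1, 2841 to 2854 in TG6 and 3391 to 4881 in F5. At mature the sums were 8849 to 9423, 6403 to 7115 and 7418 to 8970.5, and most of each came from Ighm. Pax5 was at 0.14 or less in each OT-1 library, while Cd22 reached 32.8 in OT-1 early, with 2.3 in replicate 3, against at most 4.9 in TG6 and F5 early, and Cr2 reached 86.7 in OT-1 mature replicate 1. Of the 10 markers, 0 had all OT-1 libraries above both other lines at early, 1 at late (Ighm) and 0 at mature, and 1 (Cd79b) lay below at early. The part of this list in the Blk values was not tested.

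Markers of gamma delta T cells, the cells in which Sox13, Maf and Blk are best known, gave mixed values. These are RNA values and do not show that such cells were present. OT-1 and F5 carry Rag deletions, while TG6 mice can still rearrange their own receptor genes. Of 15 marker symbols 9 were in the table, and they summed to 5551 to 9425 in OT-1, 6477 to 10031 in F5 and 1766 to 3908 in TG6, mostly from Trdc. Trdc was at 5256 to 8800 in OT-1 and at 6447 to 9991 in F5, where Sox13 was lowest. Tcrg-C1 held 255.8, 102.4 and 275.1 in OT-1 early, 312.6, 171.7 and 346.7 in OT-1 late and 314.7, 162.9 and 404.0 in OT-1 mature, against at most 43.1 in F5. In TG6 it was at 7.7 to 33.3 before maturity and at 69.7, 102.6 and 358.0 at mature. There replicate 3, which also stood apart in Rag1, was the highest of its group in Blk, Sox13 and Il17re but the lowest in Maf. The other members had means under the floor in TG6 mature and are not ranked. Tcrg-V4, Tcrg-V5 and Tcrg-V6 were at 7.1 or less in every library. At early 4 of the 9 and at late 6 of the 9 had all OT-1 libraries above both other lines, and at mature 0, while 1 (Trdv1) lay below both at late and at mature. Of the 9 NK and innate lymphoid genes, 3 at early, 2 at late and 0 at mature had all OT-1 libraries above both other lines and 0 below, and 3 to 6 were at or under the floor in each group. They summed to 1905 to 3045 in OT-1 early against 439.9 to 582.1 in TG6 and 572.7 to 779.9 in F5, to 2130 to 2615 in OT-1 late against 643.4 to 727.7 and 250.6 to 262.7, and to 3818 to 5091 in OT-1 mature against 2951 to 3095 and 2376 to 3038. Nearly all of the sum came from Nkg7 and Gzma, genes of cytotoxic granules. Klrb1b, Nkg7 and Gzma were the genes above both other lines at early, and Nkg7 and Gzma at late. Ncr1 was at 0 in every library. The 5 regulatory T cell markers summed to 5088 to 6559 in OT-1 late against 2817 to 3118 in TG6 and 2127 to 3597 in F5, mostly from Ikzf2, whereas Foxp3 was lower in OT-1 early and mature than in either other line. The part of these lists in the values of the 7 genes was not tested.

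**Figure D2:**
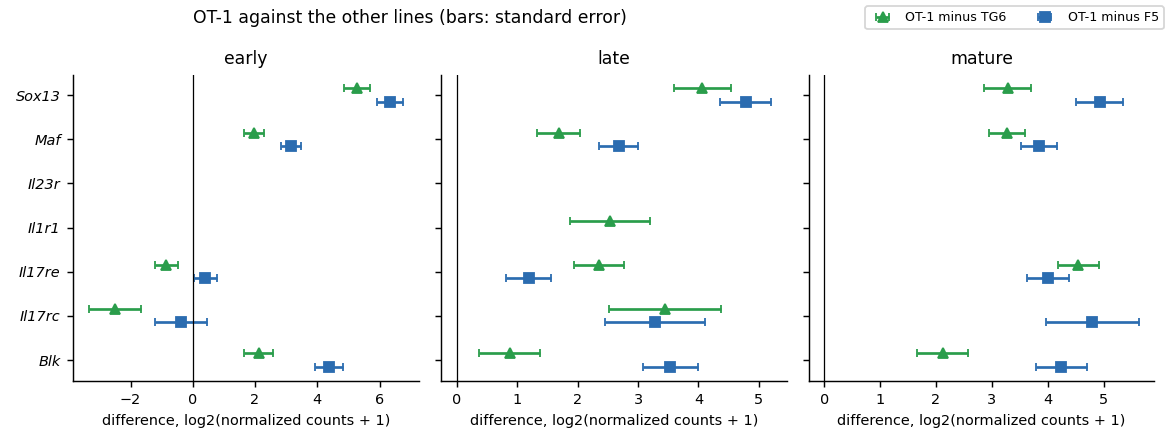
Difference between OT-1 and TG6 (green triangles) or F5 (blue squares) for each gene, in log2(normalized counts + 1) on the horizontal axis, with panels for the early, late and mature stages and bars for the standard error. Points are drawn only where both group means exceed the floor of 3, which leaves out Il23r, all but 1 point of Il1r1, and Il17rc against TG6 at mature. These contrasts chose the genes, so the plot is a description; the points for Il17re and Il17rc against TG6 lie left of 0 at early and right of 0 at late.

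Across the 7 genes, the OT-1 libraries all lay above those of TG6 for 5 genes at early, 5 at late and 7 at mature, and above those of F5 for 5, 4 and 7. The 5 at early include Il23r, which was under the floor there. Over all genes tested, the corresponding shares with every OT-1 library above were 25.1%, 27.8% and 10.7% against TG6 and 20.2%, 19.7% and 21.9% against F5. By limma, 15.4%, 9.34% and 4.67% of all genes were called with OT-1 above TG6 at the 3 stages and 12.4%, 6.21% and 5.08% with OT-1 below. Against F5, 7.81%, 13.6% and 13.3% were called higher and 4.88%, 10.4% and 10.1% lower. When each library is scaled to the same total, the share of all calls that were higher in OT-1 changes from 55.3%, 60.1% and 47.9% to 40.9%, 38.9% and 30.5% against TG6 and from 61.5%, 56.8% and 56.9% to 43.7%, 46.1% and 34.4% against F5. In fits of only the groups compared, 0.733% and 0.916% of all genes were called higher and lower in OT-1 against TG6 at mature, in place of 4.67% and 5.08%. Nothing is read from these shares about genes that were picked from the same contrasts. Per kilobase of annotated exon, the mean normalized counts in OT-1 mature were 394 for Sox13, 143 for Blk, 82.7 for Maf, 47.7 for Il17re, 46.8 for Il17rc, 8.81 for Il23r and 8.62 for Il1r1.

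In the contrasts that the choice did not use, counts are given over the 5 genes that would pass the filter without the OT-1 libraries, which leaves out Il23r and Il1r1. F5 was lower than TG6 in 3 of the 5 at early (Maf, Il17re and Blk), 1 at late (Blk) and 2 at mature (Sox13 and Blk), and higher in none. Of all genes tested, 6.46%, 4.97% and 6.64% were called in either direction at these stages. These counts were fragile: at early 1 gene was called without F5 early replicate 2 or 3 or TG6 early replicate 1 or 2, at late 0 without TG6 late replicate 1 and 2 without F5 late replicate 1, and at mature 1 without F5 mature replicate 1 or 3 or TG6 mature replicate 3. From early to late, 3 of the 5 were called in TG6 (Sox13 up, Il17re and Il17rc down) and 2 in F5 (Sox13 up, Il17re down), where 25.4% and 26.7% of all genes were called. From late to mature limma called 0 of the 5 in TG6, with 0 at an unadjusted p under 0.05, against 22.3% of all genes. It called 0 of the 5 in F5, with 1 at an unadjusted p under 0.05, against 20.5% of all genes. With the mouse as a block 1 was called, Il17re, where 4797 of all 16372 genes were called in place of 3361. Without F5 mature replicate 2, Il17re was called as well. The change from early to late differed between F5 and TG6 for 1 gene, Il17re, against 2.08% of all genes (4.81% with the replicate number within each line as a block), and for 0 without any 1 of the 5 libraries named with it above. The change from late to mature differed by limma for 0 genes, with 0 at an unadjusted p under 0.05, against 0.116% of all genes. In fits of only the groups compared, the shares of all genes called fell to 1.58% and 2.11% for F5 against TG6 at late and mature and to 3.85% and 7.61% for the step from late to mature in TG6 and F5.

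**Figure D3:**
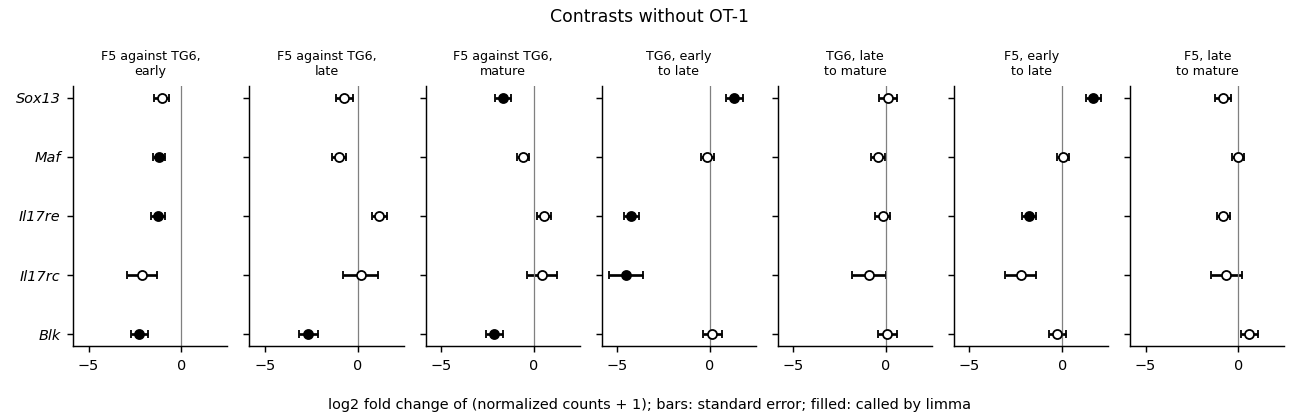
Log2 fold change of (normalized counts + 1) for the 5 genes that pass the filter without OT-1, in the contrasts without OT-1, with bars for the standard error and filled points where limma called the change at an adjusted p under 0.05. Blk is filled and left of 0 in all 3 contrasts of F5 with TG6, and Il17re is filled and left of 0 for the step from early to late in TG6 (-4.23) and F5 (-1.80). TG6 mature was under the floor for Il17rc, so that its points against that group depend on the pseudocount.

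The other genes of the type 17 pathway were taken from lists of 91 genes without the 7 members, of which 72 were tested. The lists were drawn up with earlier results of these data known, so their shares are a description and no independent support. Against TG6, 28 of the 72 at early, 15 at late and 18 at mature were called higher in OT-1, and 4, 5 and 2 lower. Against F5, 22, 24 and 29 were called higher and 3, 12 and 5 lower. With libraries scaled to the same total the higher counts were 25, 11 and 18 against TG6 and 19, 22 and 26 against F5, and the lower ones 5, 5 and 3 and 3, 14 and 8. The higher genes made up 38.9%, 20.8% and 25.0% of those tested against TG6 and 30.6%, 33.3% and 40.3% against F5, beside the shares of all genes given above. The lower genes made up 5.56%, 6.94% and 2.78% against TG6 and 4.17%, 16.7% and 6.94% against F5. Against F5 at late 10.4% of all genes were lower. The median log2 difference over the 72 was 0.38, 0.23 and 0.15 against TG6 and 0.24, 0.13 and 0.29 against F5, where the median over all genes tested lay between -0.01 and 0.01. The contrasts share their OT-1 libraries. Without F5 early replicate 3 or OT-1 early replicate 2 the count against F5 at early fell from 25 to 16, and without TG6 mature replicate 3 the count against TG6 at mature went from 20 to 30.

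**Figure D4:**
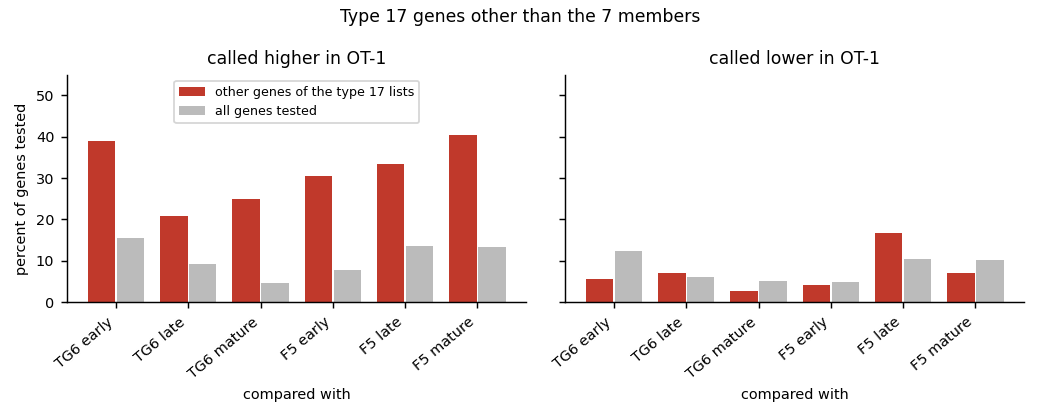
Percent of genes called higher (left) or lower (right) in OT-1 against TG6 or F5 at each stage, for the 72 tested genes of the type 17 lists other than the 7 members (red bars) and for all genes tested (grey bars). The red bars on the left run from 20.8% to 40.3% and the grey ones from 4.67% to 15.4%. The lists were drawn up with earlier results of these data known, so the plot is a description.

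The list was made of surface and effector genes of type 17 lymphocytes, transcription factors, ligands and receptors, and signal transducers. Of 20 surface and effector genes tested, 10, 4 and 9 were called higher against TG6 at the 3 stages and 11, 9 and 12 against F5, while 1, 0 and 1 were called lower against TG6 and 2, 5 and 2 against F5. Among 20 transcription factors 9, 3 and 4 were higher and 0, 1 and 0 lower against TG6, and 6, 7 and 7 higher and 0, 2 and 3 lower against F5. Among 14 ligands and receptors 4, 5 and 4 were higher and 2, 2 and 0 lower against TG6, and 2, 4 and 6 higher and 1, 3 and 0 lower against F5, with a median log2 difference of -0.05 against F5 at late. Among 18 signal transducers 5, 3 and 1 were higher and 1, 2 and 1 lower against TG6, and 3, 4 and 4 higher and 0, 2 and 0 lower against F5. Against TG6 at mature 5.56% of the signal transducers were higher, beside 4.67% of all genes.

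5830411N06Rik and Cd163l1, scavenger receptor genes known from IL-17-producing gamma delta T cells, had the largest log2 differences of the called list genes except against TG6 at mature, where Il18r1 and Etv5 came after 5830411N06Rik and Cd163l1 was not among the first 3. 5830411N06Rik averaged 7361 ± 350 (SD, n = 3) normalized counts in OT-1 early, 13456 ± 1523 in OT-1 late and 14091 ± 2306 in OT-1 mature. In TG6 it averaged 150.8 ± 77.4, 584.0 ± 330 (n = 2) and 1204 ± 175, and in F5 157.4 ± 3.8, 219.0 ± 48.6 and 596.0 ± 126. OT-1 was thus higher by 5.77, 4.64 and 3.54 on the log2 scale against TG6 and by 5.54, 5.95 and 4.57 against F5 (limma adjusted p at most 8.85e-08). Cd163l1 averaged 3028, 6663 and 3361 in OT-1 against 80.6, 516.0 and 633.3 in TG6 and 23.6, 68.0 and 149.7 in F5. Its log2 differences were 5.40, 3.85 and 2.52 against TG6 and 6.97, 6.61 and 4.47 against F5. The ratio of the OT-1 mean to the TG6 mean was smallest at mature for both genes, at 11.7 and 5.31.

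Il6ra, the receptor of IL-6, averaged 957.4 in OT-1 early against 26.3 in TG6 early (log2 difference 5.27, limma adjusted p = 4.39e-12) and 30.9 in F5 early (4.91, 2.86e-11), and 3356 against 434.5 at late in TG6 (2.95, 5.57e-07). Il18r1, a receptor chain for IL-18, went the other way at late, where OT-1 averaged 175.1 and F5 512.4 (-1.50, adjusted p = 0.00218), but reached 941.6 in OT-1 mature against 95.2 in TG6 mature (3.38, adjusted p = 4.03e-07). Etv5, an ETS factor, averaged 1084 in OT-1 mature and 137.0 in TG6 mature (2.94, adjusted p = 1.93e-06). Irf4 averaged 1639 in OT-1 late against 68.8 in F5 late (4.55, adjusted p = 1.33e-10), and Il7r, the receptor of IL-7, 2038 in OT-1 mature against 120.6 in F5 mature (4.41, adjusted p = 3.28e-07). Both are widely used in T cells outside the type 17 programme.

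Among the genes that were lower in OT-1, Socs3, an inhibitor of IL-6 and IL-23 signalling, was below TG6 at each stage (-1.12, -1.50 and -1.44, limma adjusted p = 0.00331, 0.00126 and 0.00113); the last was lost in a fit of those 2 groups alone (0.180). Il17ra, the shared chain for both IL-17 receptor members, averaged 3834 in OT-1 early against 6654 in TG6 (-0.80, adjusted p = 0.000615) and 5368 in F5 (-0.49, adjusted p = 0.0432); the latter call was lost on leaving out any 1 of 5 of the libraries, with no filter on low values and with no trend in the prior variance. Il2ra was lower than in TG6 at early (-1.37, adjusted p = 0.00619) and Il1rl2 at late (-0.83, adjusted p = 0.000687). Tmem176b was lower than in F5 at each stage (-1.30, -1.32 and -0.76, adjusted p = 0.00111, 0.000498 and 0.0341) and Tmem176a at early (-1.43, adjusted p = 0.0214). The call of Tmem176b at mature was lost without F5 mature replicate 1, 2 or 3 or OT-1 mature replicate 3 (adjusted p from 0.0607 to 0.169), with no filter on low values (0.0545) and in a fit of the 2 groups alone (0.0844), and that of Tmem176a without F5 early replicate 1 (0.102) or OT-1 early replicate 2 (0.155) and in a fit of the 2 groups alone (0.0797). The remaining calls by this rule, Il12rb2 at late (-0.96, adjusted p = 0.0344) and Ltb at mature (-0.62, adjusted p = 0.0366) against TG6, and Ltbr at late (-2.78, adjusted p = 0.0173), Rora at mature (-1.12, adjusted p = 0.0394) and Nfkbiz at mature (-0.68, adjusted p = 0.0422) against F5, were each lost on leaving out some single libraries and with at least one other setting.

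Of the IL-17 cytokine genes, Il17f was called higher in OT-1 at mature, and Il17a stayed close to the floor. Il17a was at 0 in 22 libraries and held 1.0 in OT-1 late replicate 1 and 2.1, 4.2 and 4.0 in OT-1 mature. Il17f held 88.0, 80.3 and 61.5 in OT-1 mature, above TG6 (27.3, 20.8 and 9.5; log2 difference 2.04, adjusted p = 0.00231) and F5 (18.4, 19.9 and 16.5; 2.00, adjusted p = 0.00137). Il12rb1, the partner of Il23r, was called in no contrast of OT-1 (log2 differences from -0.12 to 0.38). Il1rap, the partner of Il1r1, was above TG6 in OT-1 late (0.53, adjusted p = 0.0199) and F5 (0.48, adjusted p = 0.0131), and higher in OT-1 mature than in F5 (0.60, adjusted p = 0.00325). Ccr6 averaged 6.8 in OT-1 mature and at most 4.0 elsewhere, and Zbtb16, the gene of PLZF, at most 2.0.

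**Figure D5:**
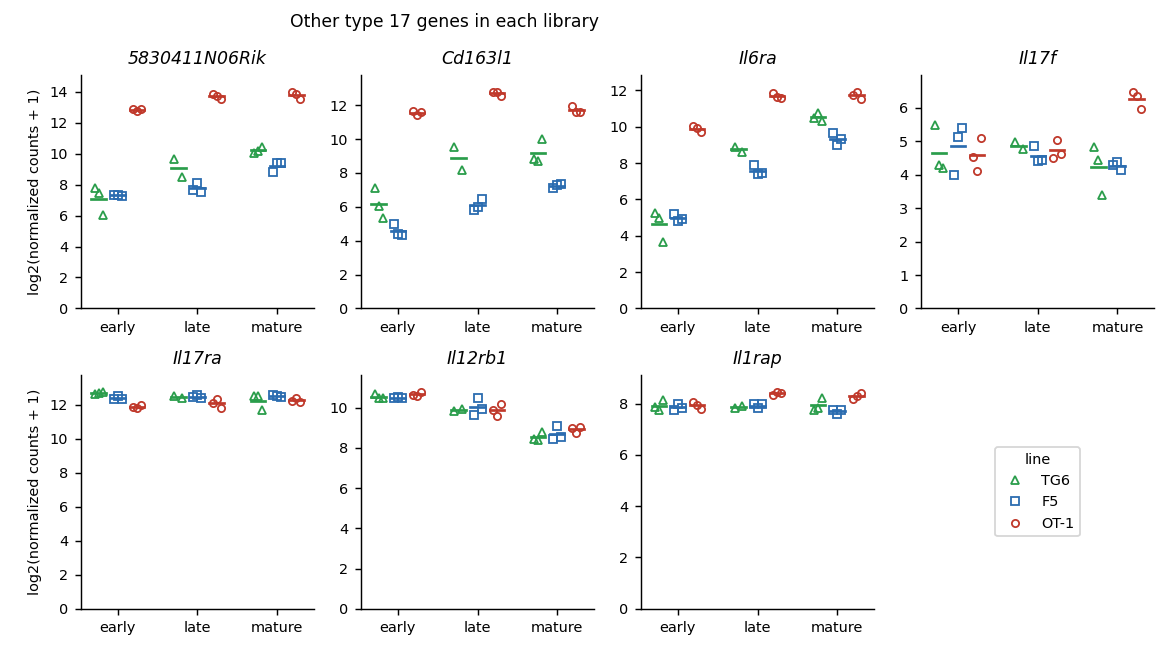
Each point is 1 library, as log2(normalized counts + 1) against stage, with green triangles for TG6, blue squares for F5, red circles for OT-1 and short lines at the means. 5830411N06Rik, Cd163l1 and Il6ra lie higher in OT-1 at each stage, Il17f only at mature (61.5 to 88.0 normalized counts), while Il17ra lies lower in OT-1 early (mean 3834) than in TG6 (6654) and F5 early (5368), and the lines differ less in Il12rb1 (log2 differences of OT-1 from -0.12 to 0.38) and Il1rap (0.01 to 0.60).

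Relatives of Sox13 and of Blk were compared to show where these members differ from them. Those of Maf are not reported here. Of 3 tested SoxD and SoxC relatives of Sox13, limma called 0 against TG6 at each stage, with 1, 1 and 0 at an unadjusted p under 0.05. Against F5 the OT-1 level was higher for Sox5 at early and late (3.49 and 2.96, adjusted p = 0.00968 and 0.0168) and for Sox12 at late and mature (0.82 and 0.96, adjusted p = 0.0474 and 0.0230), named after their values were seen. For Blk, 7 other Src family kinases were tested, and not every call among them, higher ones included, is named here. Among those named after their values were seen, Fyn was higher in OT-1 at early (0.74 against TG6 and 0.59 against F5, limma adjusted p = 0.00173 and 0.0177), the direction measured for Blk. Lck, the main TCR-proximal kinase, was lower in OT-1 in each contrast (-0.48, -0.37 and -0.24 against TG6 and -0.82, -1.07 and -0.80 against F5). Src was lower against F5 at late (-2.35, adjusted p = 0.0433) and Lyn against F5 at mature (-1.14, adjusted p = 0.0377). Lck averaged 17954, 15110 and 13258 normalized counts in OT-1.

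The genes whose pattern over the 26 libraries was most like that of each member were found by Pearson correlation of log2(normalized counts + 1), which for most members follows the split between OT-1 and the rest. For Sox13 they were Trav14d-1 and Trav14n-1 (r = 0.963 for both), TCR alpha segments with identical values that the counting could not tell apart, and Ccr8 (0.950), a chemokine receptor. For Maf they were Trbv12-1 (0.924) and the same Trav14 segments (0.918). These TCR segments were at 4254 to 8717 (Trav14d-1) and 17073 to 28527 (Trbv12-1) on average in the OT-1 groups and at most 169.8 and 59.9 elsewhere. For Il1r1 they were Myo6 (0.943) and the Trav14 segments (0.920), and for Blk Myo1e (0.924), Pdlim4 (0.918) and Chn2 (0.909). Il23r was closest to Pxdc1 (0.848), which averaged 48.3 in OT-1 mature and at most 1.7 elsewhere, then Gnai2 (0.830) and Ly6g5b (0.824). Il17re and Il17rc were closest to each other (0.867), followed by Crispld2 (0.843 and 0.788), and then by C030034L19Rik (0.834) for Il17re and Gpx7 (0.775) for Il17rc. Neighbouring genes on the same strand can share reads, which was not tested, so the likeness of Il17re and Il17rc is uncertain to that extent.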

How the data were processed

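Positively selected thymocytes of TG6, F5 and OT-1 mice were sorted at 3 stages and their RNA sequenced. Per the submitters' processing notes and the study's methods, the authors removed adapters (Trimmomatic 0.32), mapped reads to mm10 (Bowtie2 2.3.2) and estimated counts per gene (RSEM 1.2.31). The authors deposited these estimates divided by DESeq2 size factors, a normalized signal per gene and library, called normalized counts here. Only 42.4% to 44.2% of values came out as whole reads within 0.01, so no count test was run. Library totals were 16134786 to 18944173 normalized counts, close to read totals estimated at 16161676 to 18345795, and limit what can be seen near the floor of 3.

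Groups came from the genotype and stage labels. Log2(value + 1) of the 16372 genes with at least 10 in at least 2 libraries was fitted in limma 3.58.1 (R 4.3.3) with 9 group means, a variance trend and 17 residual degrees of freedom; p-values were adjusted by Benjamini-Hochberg over all genes. Labels call the replicates biological; p-values measure the spread between them.

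Members and lists were chosen with earlier results of these data known. Named were all members, the 3 called list genes with the largest change in each direction per OT-1 contrast, 8 defining or partner genes (1 is not reported here), and the 3 genes nearest to each member. Alternatives were another pseudocount, filter, scaling, variance prior or set of groups, a replicate block, and leaving out each library.

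Replicate numbers were checked for pairing. In F5 all 9 same-number pairs of stages deviated together (correlations from 0.106 to 0.34), so the numbers were taken to mark mice there. In TG6 2 of 7 and in OT-1 5 of 9 pairs passed 0.1.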

Additional observations from a re-analysis of the deposited data

Results flagged for a closer look

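The fall of Il17re from early to late was smaller in F5 than in TG6, by 2.43 on the log2 scale (SE 0.56), in a limma test of the difference itself (adjusted p = 0.0197). All 3 F5 late libraries (20.0 to 54.5 normalized counts) lay above both TG6 late libraries (12.4 and 12.8), while all 3 F5 early libraries (89.7 to 133.7) lay below the TG6 early ones (225.3 to 300.0). F5 late replicate 2, with the highest Il17re of its group, also had the highest Rag1 of its group, and without it the difference was 2.00 (adjusted p = 0.0532); the part of preselection cells was not tested.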

How the results depend on the processing

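No count of calls or called difference of a single gene changed direction under an alternative. Under scaling to the same total, the split of all calls turned from mostly higher to mostly lower in OT-1 in 5 of the 6 contrasts (values below). Counts of the genes called are over the 5 that pass the filter without OT-1, a choice made after seeing the data. No test of Il23r or Il1r1 is counted, because both entered the fit only through their OT-1 values. The replicate block (the replicate number within each line for stage changes, the replicate number across lines for contrasts between lines) raised the count of the 5 genes that changed in F5 from late to mature from 0 to 1. The block also raised the calls in F5 among all genes from 4373 to 5830 (early to late) and from 3361 to 4797 (late to mature). Over all genes it raised the share whose stage change differed between F5 and TG6 from 2.08% to 4.81% (early to late) and from 0.116% to 0.214% (late to mature). It moved no other count of calls over these 5 genes or the type 17 list by more than 1.5 times: F5 against TG6 at early gave 2, and the type 17 list gave 34, 21 and 20 against TG6 and 28, 37 and 35 against F5. For single genes it also ended the calls of Il17re in F5 against TG6 at early (adjusted p = 0.0503) and of Sox13 from early to late in TG6 (adjusted p = 0.112). The numbers were not shown to pair mice in TG6.

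In fits of only the groups compared, which have fewer libraries, 0 of the 5 genes were called for F5 against TG6 at mature in place of 2, and the type 17 list against TG6 at mature gave 12 in place of 20. Over all genes such fits called 10.2%, 1.58% and 2.11% for F5 against TG6 at the 3 stages, 3.85% and 7.61% for the step from late to mature in TG6 and F5, 1.65% for OT-1 against TG6 and 15.4% for OT-1 against F5 at mature, and 0.0183% for the difference of the later stage change, in place of 6.46%, 4.97%, 6.64%, 22.3%, 20.5%, 9.74%, 23.3% and 0.116%. That last share was 0.263% with a pseudocount of 5. On leaving out single libraries, the counts for F5 against TG6 ran from 1 to 3 at early, 0 to 2 at late and 1 to 2 at mature, from 2 to 3 for the step from early to late in TG6 and in F5, stayed at 0 for the next step in TG6 and ran from 0 to 1 in F5, and from 0 to 1 for the difference of stage changes. The type 17 counts ran from 26 to 33, 14 to 19 and 18 to 30 against TG6 and from 16 to 22, 26 to 35 and 27 to 33 against F5.

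Scaling each library to the same total moved the median of all genes in OT-1 by -0.13 to -0.07 on the log2 scale. The share of all calls that were higher in OT-1 went from 55.3%, 60.1% and 47.9% to 40.9%, 38.9% and 30.5% against TG6 and from 61.5%, 56.8% and 56.9% to 43.7%, 46.1% and 34.4% against F5. Over the tests of single genes other than Il23r and Il1r1, 1130 alternatives kept the direction and the side of the threshold, 82 lost a call and 7 gained one; where not given above, the cause was not tested. Depth limits Il23r, Il1r1 outside OT-1 and Il17a, which lie near the floor.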
